A study of Rattus norvegicus with 12 samples.

Results

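Transcripts of the Wnt signalling pathway were followed in F11 cells during 48 h of forskolin. The set held every array probe whose gene name, without the suffixes _predicted and _mapped, was a Wnt, Fzd, Dkk or Sfrp gene, Axin1, Axin2, Nkd1, Nkd2, Lef1, Tcf7, Ctnnb1, Lrp5, Lrp6 or a Dvl gene. This gave 44 genes, of 35561 names or IDs of genes and transcripts on the array, and 60 of its 41012 probes. F11 is a hybrid line from rat dorsal root ganglion neurons and mouse neuroblastoma, here on rat probes, and the share of signal from mouse transcripts was not tested. The groups were F11 cells with 10 µM forskolin, a plant compound that activates adenylyl cyclase and raises cyclic AMP, for 2, 4, 24 and 48 h, with 3 samples at each time. The reference was F11 cells without forskolin, and all cells had first spent 3 h in medium with 0.5% serum. Each of the 12 arrays held forskolin RNA in Cy3 and RNA of this common reference in Cy5, so the reference counts as 1 control sample and its own spread is left out. There were 0 arrays of cells kept for the later times without forskolin, so time in low serum and time in forskolin cannot be told apart.

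Wnt proteins are secreted ligands that bind Frizzled receptors on the cell surface. With the co-receptors Lrp5 and Lrp6, they act through Dishevelled proteins to halt the destruction complex, built on the scaffold Axin, so that beta-catenin accumulates and joins Tcf and Lef factors at target genes. Other Wnt signals pass through Frizzled and Dishevelled to the cytoskeleton without beta-catenin, a branch known in neurons for its part in axon growth and guidance. Dkk proteins block the co-receptors, and Sfrp proteins bind Wnt ligands outside the cell.

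Probes of transcripts that the results turn on are printed here from the scanner files, 5′ to 3′, because each value of a probe is the signal of its 60 bases and of nothing else in the gene. The files place them on rat build rn3, for which no annotation was used here, so exons are not named. The positions are chr16:3799335-3799394, plus strand, for Wnt5a and chr4:155992658-155992717, minus strand, for Wnt5b. Fzd1 lies at chr4:26010259-26010318, plus strand, and the files give no position for Fzd3. Dkk1 lies at chr1:234558130-234558189, minus strand, Axin1 at chr10:15463392-15463451, plus strand, and Lef1 at chr2:228650073-228650132, plus strand. The first of 2 Ctnnb1 probes lies on the plus strand at chr8:125998417-125998608. This interval spans 192 bases, more than the 60 bases of a probe, so the bases of the probe are not contiguous in the genome.
Wnt5a: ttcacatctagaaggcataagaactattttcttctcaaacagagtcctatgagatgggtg
Wnt5b: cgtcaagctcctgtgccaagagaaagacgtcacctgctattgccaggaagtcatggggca
Fzd1: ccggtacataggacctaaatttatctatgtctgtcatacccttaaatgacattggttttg
Fzd3: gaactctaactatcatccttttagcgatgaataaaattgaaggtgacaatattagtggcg
Dkk1: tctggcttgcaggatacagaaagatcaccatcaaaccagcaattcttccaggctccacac
Axin1: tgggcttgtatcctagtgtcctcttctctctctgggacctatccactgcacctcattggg
Ctnnb1: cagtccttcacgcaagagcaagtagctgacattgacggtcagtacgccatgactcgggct
Lef1: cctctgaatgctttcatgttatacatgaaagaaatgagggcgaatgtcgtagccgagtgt

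Unless stated otherwise, a value below is a log2 ratio of forskolin over reference, ± marks the SD of the 3 arrays of a time, and a probe was called at a limma adjusted p under 0.05 over 20630 tested probes. Per array, 19889 to 21973 of 43379 spots were well above background for forskolin RNA and 19504 to 23285 for reference RNA, the median raw signal was 64.6 to 71.5 in forskolin and 112.7 to 127.9 in reference channels, and the 3 arrays per time limit the precision. Whether the 3 samples of a time were separate cultures is not stated in the labels, so a p-value here reflects only how far these samples differed, which may be technical. Dyes were not swapped, so a dye effect peculiar to a probe stays in each change against the reference and cancels between times. The 3 replicate numbers were 3 slides, and the 4 times held fixed positions on a slide, so position and time cannot be told apart. Of 10 neuronal markers, 9 were well above background in both channels on all 12 arrays, and Pou4f1 was on 3 forskolin and 1 reference channels. The summed level of the 9 was 89400 to 93800 in forskolin and 96200 to 98300 in reference channels at 2 h and 85400 to 89000 against 100000 to 103000 at 4 h. It was 122000 to 137000 in forskolin and 94900 to 99400 in reference channels at 24 h, and 156000 to 166000 against 92800 to 94400 at 48 h. Of the 9, 4 were called higher and 4 lower at 24 h (Nefm -0.43, Gap43 -0.23, Stmn2 -0.33 and Isl1 -0.52), and 7 higher and 0 lower at 48 h. The glial markers Sox10 and Pmp22 and the fibroblast markers Col1a1 and Col1a2 were also well above background in both channels on all 12 arrays, while Gfap, S100b, Dcn, Lum, Pecam1 and Aif1 never were. The 4 tested glial probes summed to 5080 to 5360 in forskolin and 4560 to 4920 in reference channels at 2 h, 4050 to 4720 against 4180 to 4820 at 4 h, 4160 to 4380 against 4710 to 4890 at 24 h and 3940 to 4270 against 4770 to 5040 at 48 h. The 4 fibroblast probes summed to 1020 to 1050 in forskolin and 1080 to 1120 in reference channels at 2 h, 969 to 1030 against 1090 at 4 h, 941 to 1040 against 1060 to 1070 at 24 h and 1120 to 1340 against 1060 to 1100 at 48 h. The part of these cell markers in the Wnt values was not tested. Fewer cells of a type and less RNA per cell cannot be told apart in such bulk samples.

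Of the Wnt ligand genes, 7 of 18 gave enough signal in these cells to be tested, and of the Frizzled receptor genes 4 of 8. Of the 60 probes, 24 were never well above background in either channel (40%, against 37.9% of all probes), and 12 were in both channels on all 12 arrays (20%, against 38%). A probe was tested where 1 of its channels, or both, stood well above background on every array of some time, which left 25 probes of 22 genes, or 41.7% of the Wnt probes against 50.3% of all probes. A probe could pass through the time or channel in which it was bright, so the 25 do not stand for all members. The tested ligand genes were Wnt2, Wnt5a, Wnt5b, Wnt7a, Wnt7b, Wnt10a and Wnt11. Wnt1, Wnt2b and Wnt3 were seen on 4, 1 and 1 forskolin channels, and Wnt1 on 1 reference channel as well. Wnt3a, Wnt4, Wnt6, Wnt8a, Wnt8b, Wnt9a, Wnt9b and Wnt10b were never well above background. Of the 8 Frizzled genes on the array, Fzd1, Fzd2, Fzd3 and Fzd7 passed, and Fzd4, Fzd5, Fzd6 and Fzd9 were never seen. The co-receptor gene Lrp6 passed, and Lrp5 was seen on 1 forskolin channel. Of 7 antagonist genes, Dkk1, Sfrp4 and Sfrp5 passed, whereas Dkk3 and Sfrp1 were never seen, Sfrp2 was seen on 1 channel of each kind, and Dkk4 on 3 forskolin channels and 1 reference channel. The cytoplasmic regulators Axin1, Dvl1, Dvl3, Nkd1 and Nkd2 passed. Axin2, whose transcript is itself a common target of beta-catenin, was well above background on 0 forskolin and 3 reference channels and was not tested. Ctnnb1, encoding beta-catenin, and Lef1 passed, and Tcf7 was seen on 1 forskolin channel.

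**Figure D1:**
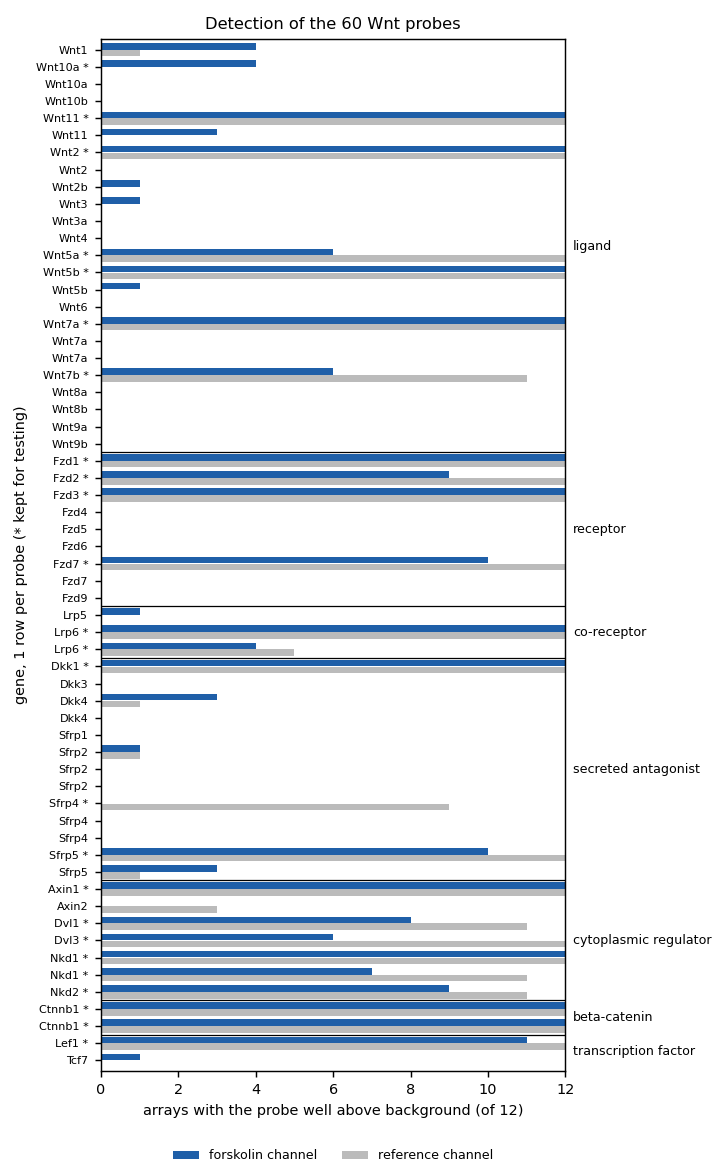
Number of arrays, of 12, on which each of the 60 Wnt probes was well above background in either channel (forskolin RNA, reference RNA), with 1 row per probe, grouped by role and with an asterisk on the 25 probes kept for testing. Of the 24 ligand probes, 12 were never seen, and several genes have 1 probe with signal beside others without.

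Probes of 1 gene often differed in whether they gave a signal at all. The second probe of Wnt5b was well above background on 1 forskolin and 0 reference channels, that of Wnt11 on 3 and 0, and the second probes of Wnt2, Wnt10a and Fzd7 on 0 of each. Both further Wnt7a probes were never seen. The values of these genes therefore each rest on 1 probe, and how much of each transcript it reads was not tested. The tested Wnt probes had a median GC content of 48.3%, as had those that did not pass, against 43.3% for all probes.

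Against the unstimulated reference, the antagonist transcript Dkk1 fell at all 4 times, and it was lowest at 4 h and still low at 48 h. The receptor transcript Fzd3 rose at 2 and 4 h after loess, with values against the reference that depended on the scaling. Wnt5a and Wnt5b, closely related ligands, changed in opposite directions between 4 and 24 h; after loess Wnt5a was lower and Wnt5b higher than the reference at 24 and 48 h. At 2 h, 6 Wnt probes were called (24%, against 27.3% of all tested probes), 2 higher and 4 lower, where 10.7% of all probes were higher and 16.6% lower. At 4 h, 11 were called (44%, against 48.8%), 6 higher and 5 lower, against 21% and 27.9% of all probes. At 24 h, 9 were called (36%, against 51.8%), 3 higher and 6 lower, against 24.2% and 27.6% of all probes. At 48 h, 11 were called (44%, against 55.9%), 6 higher and 5 lower, against 26.5% and 29.4%. These shares were near or below those of all probes, and the medians of the 25 changes, -0.06, -0.05, -0.02 and -0.01, were close to the medians of all probes, -0.015, -0.022, -0.017 and -0.016. Of the 22 genes, 16 were called at 1 time or more, 3 of them at all 4 times (Dkk1, Axin1 and Fzd2) and 3 in both directions (Fzd1, Wnt5a and Wnt5b). By probe, 17 of the 25 were called at 1 time or more (68%, against 78.3% of all tested probes) and 3 at all 4 times (12%, against 13.5%).

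**Figure D2:**
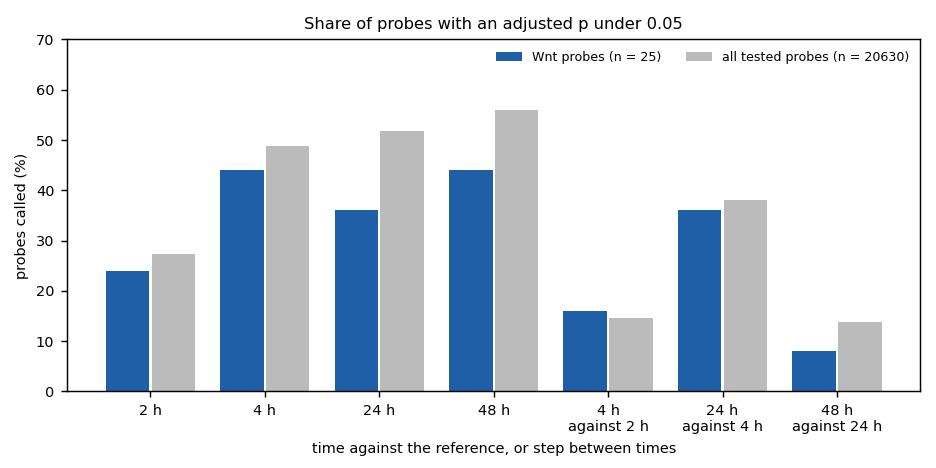
Share of probes called at an adjusted p under 0.05, in percent, for the 25 tested Wnt probes beside all 20630 tested probes, at each time against the reference and for each step between times. The Wnt share was below that of all probes in 6 of these comparisons and above it for 4 h against 2 h.

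The split into higher and lower calls rested on the loess step. With each array centred on its median in place of loess, the median of all tested probes lay at -0.54, -0.55, -0.42 and -0.44 at 2, 4, 24 and 48 h. The Wnt calls were then 1 higher and 15 lower at 2 h, 1 and 13 at 4 h, 0 and 14 at 24 h and 1 and 15 at 48 h, where 76.1%, 76.8%, 71.6% and 72.8% of all tested probes were called in either direction. Relative to that median, they were 15 higher and 5 lower, 14 and 6, 12 and 6, and 13 and 4, where 76.5%, 77.3%, 72.6% and 74.5% of all were called. Differences between times cancel a constant shift of a probe.

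**Figure D3:**
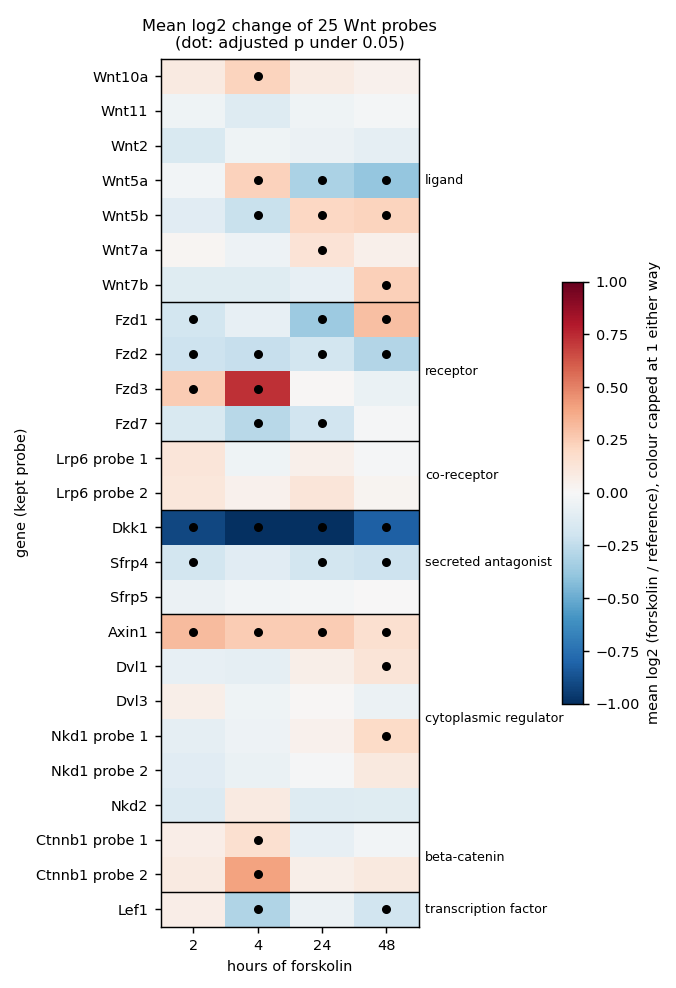
Mean log2 ratio of forskolin over reference (colour, n = 3 arrays) of the 25 tested Wnt probes at 2, 4, 24 and 48 h, grouped by role, with a dot where the adjusted p was under 0.05. Dkk1 is the dark row, lower at all 4 times under each scaling tried, whereas Axin1 turned sign at all times with either median centring. Fzd3 turned sign at 2 and 4 h with median centring, and relative to the centred median it stood at 0.05 and 0.45.

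Among the ligands, Wnt5a, which signals mostly without beta-catenin and is known for guiding axons, was called higher than the reference at 4 h and lower at 24 and 48 h. Its ratios were 0.06, -0.05 and -0.11 at 2 h, 0.08, 0.34 and 0.26 at 4 h, -0.44, -0.27 and -0.24 at 24 h, and -0.38, -0.35 and -0.43 at 48 h. All 3 arrays lay above the reference at 4 h and below it at 24 and 48 h, and the early and late arrays did not overlap. The change was 0.23 ± 0.13 at 4 h (limma adjusted p = 0.0035), and without replicate 2 of that time it was 0.17 with an adjusted p of 0.052, and with median centring 0.04 with an adjusted p of 0.62. At 24 and 48 h none of the 3 forskolin channels but all 3 reference channels were well above background. After loess, the reference was thus at least 1.24-fold higher at 24 h (limma adjusted p = 0.00023) and at least 1.31-fold higher at 48 h (3.5e-05). These bounds are means of 3 arrays, near the fitted folds of 1.25 and 1.31, and carry their error. Leaving out 1 array at a time gave -0.36 to -0.26 at 24 h. The step of 24 h against 4 h was called lower (limma adjusted p = 6.7e-05), and its size was not measured, since the forskolin channel at 24 h gives only a bound. The rise of 4 h against 2 h, 0.26, was called at an adjusted p of 0.037 but was lost on leaving out replicate 2 or 3 of 2 h or of 4 h, with values of 0.20 to 0.25. In the scanner's processed intensities, which add no offset, Wnt5a read 10.8, 6.8 and 8.21 in forskolin and 67.2, 50.8 and 63.8 in reference channels at 48 h. These forskolin readings, not well above background, give no size of the change. Relative to the median of all probes after median centring, Wnt5a stood at 0.07 at 24 h and 0.05 at 48 h, neither called.

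Wnt5b, a close relative of Wnt5a, moved the other way after 4 h, and its arrays are given although it ranked eleventh by size of change, a choice made after its values were seen. The ratios were -0.06, -0.06 and -0.20 at 2 h, -0.17, -0.28 and -0.22 at 4 h, 0.28, 0.11 and 0.25 at 24 h, and 0.24, 0.05 and 0.38 at 48 h. No array of the early times reached the level of any array of the late times. The changes were -0.22 ± 0.06 at 4 h, 0.21 ± 0.09 at 24 h and 0.22 ± 0.17 at 48 h (limma adjusted p = 0.0062, 0.008 and 0.0047), and 24 h lay 0.43 ± 0.08 (SE) above 4 h (0.00085). Leaving out replicate 2 at 4 h (-0.19), replicate 1 or 3 at 24 h (0.18 and 0.19), or replicate 3 at 48 h (0.15) ended the call at that time. With median centring the late values were -0.31 and -0.35. The step of 24 h against 4 h, called under 10 of 11 other settings, was 0.38 with an adjusted p of 0.055 relative to the centred median.

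Wnt7b, a ligand expressed in developing neurons, was called against the reference at 48 h only. Its ratios were -0.26, -0.06 and -0.03 at 2 h, -0.10, -0.17 and -0.08 at 4 h, -0.11, -0.05 and -0.09 at 24 h, and 0.23, 0.01 and 0.47 at 48 h. The 48 h arrays were the only ones above the reference, and 1 of them lay close to it. The mean of 0.24 ± 0.23 had an adjusted p of 0.0093 in limma. Without replicate 3 of 48 h it was 0.12 with an adjusted p of 0.15, and with median centring 0.18 with an adjusted p of 0.08. Over 10 other settings the Wnt7b value at 48 h ran from 0.18 to 1.06. Its forskolin channel was well above background on no array at 2 and 4 h and on all 3 at 24 and 48 h. On replicate 3 of 48 h, the array with 0.47, the Wnt7b reference channel was not well above background. In processed intensities Wnt7b read 102, 81.5 and 99.4 in forskolin and 46.1, 68 and 29.4 in reference channels at 48 h. The size of the ratio on replicate 3 was thus not measured. Wnt10a was well above background only in forskolin, on all 3 arrays at 4 h and 1 at 24 h. It passed the filter only through its forskolin signal at 4 h, so a call there follows in part from that choice. After loess it was at least 1.16-fold higher than the reference at 4 h (limma adjusted p = 0.0063). That Wnt10a call was lost without replicate 1 of 4 h (0.19, adjusted p = 0.053). Wnt7a, which acts on synapses in the cerebellum of mice, had a change of 0.14 ± 0.13 at 24 h (0.024), with 0.16, 0.26 and 0.00 on its arrays. The call of Wnt7a was lost without replicate 1 (0.13) or replicate 2 (0.08) of 24 h, and the value was -0.35 with median centring. Wnt2 and Wnt11 were well above background in both channels on all 12 arrays and were called at no time after loess. The changes of Wnt11, a ligand of the branch without beta-catenin, lay between -0.13 and -0.02, with SDs of 0.14 to 0.23. Replicate 1 of Wnt11 read -0.19, -0.39, -0.20 and -0.23 at the 4 times, below replicates 2 and 3 at each. Without slide in the fit, changes of that size were not called. With slide as a block, Wnt11 was called at 4 h (-0.13, adjusted p = 0.021) and Wnt2 at 2 h (-0.15, adjusted p = 0.037). With median centring Wnt11 was -1.16, -1.23, -1.03 and -1.05 at the 4 times, and relative to the centred median it was -0.62, -0.69, -0.60 and -0.62, all 8 values called (limma adjusted p of 0.00024 or less). Wnt2 was -0.32, -0.25, -0.17 and -0.25 with median centring, called at 2, 4 and 48 h, and 0.22, 0.30, 0.25 and 0.19 relative to the centred median, called at all 4 times.

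**Figure D4:**
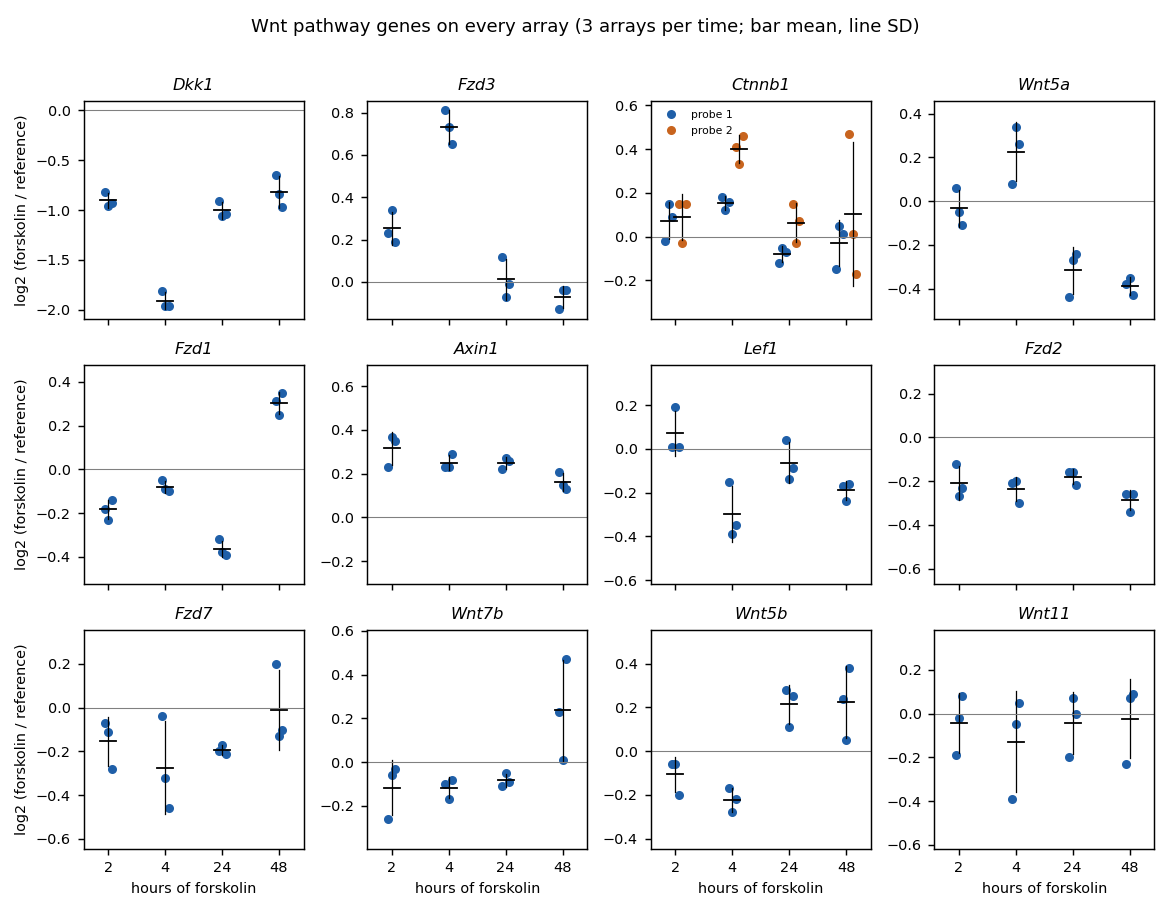
Log2 ratio of forskolin over reference on each array (points, 3 per time), with the mean (bar) and the SD (line), for the 10 genes with the largest called fitted changes and for Wnt5b and Wnt11; Ctnnb1 has 2 probes and each panel has its own vertical scale. Dkk1 lies below 0 on all 12 arrays, Fzd3 peaks at 4 h, Fzd1 crosses 0 at 48 h, and Wnt5a and Wnt5b run in opposite directions after loess, while the place of 0 depends on the scaling.

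The 4 measured Frizzled receptors did not move together. Fzd3, which guides growing axons in mice, rose early after loess and was not called at 24 and 48 h. Its ratios were 0.23, 0.34 and 0.19 at 2 h and 0.81, 0.73 and 0.65 at 4 h, against 0.12, -0.07 and -0.01 at 24 h and -0.13, -0.04 and -0.04 at 48 h. All 3 arrays at 4 h lay above every array of the other times. In processed intensities Fzd3 read 966, 934 and 881 in forskolin and 453, 456 and 462 in reference channels at 4 h. The change was 0.25 ± 0.08 at 2 h and 0.73 ± 0.08 at 4 h, or 1.66-fold (limma adjusted p = 0.0019 and 4.3e-08), and the values at 24 and 48 h, 0.01 and -0.07, were not called. The step of 4 h against 2 h was 0.48 ± 0.07 and that of 24 h against 4 h was -0.72 ± 0.07 (SE, limma adjusted p = 0.00033 and 1.7e-06). With median centring the values against the reference were -0.50 (called lower) at 2 h and -0.10 (adjusted p = 0.35) at 4 h, and relative to the centred median 0.05 (0.66) and 0.45 (0.00017). With median centring the step of 4 h against 2 h was 0.40 with an adjusted p of 0.16, whereas the step of 24 h against 4 h kept its sign and its call under 11 of 11 other settings, at -1.01 to -0.48.

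Fzd1 changed direction between the late times after loess. Its ratios were -0.18, -0.23 and -0.14 at 2 h, -0.05, -0.09 and -0.10 at 4 h, -0.32, -0.38 and -0.39 at 24 h, and 0.31, 0.25 and 0.35 at 48 h. The 3 arrays at 48 h were the only ones above the reference, and those at 24 h were the lowest. In processed intensities Fzd1 read 550, 484 and 485 in forskolin and 404, 382 and 353 in reference channels at 48 h, and 283, 252 and 225 against 380, 372 and 354 at 24 h. The mean changes were -0.18 ± 0.05 at 2 h, -0.36 ± 0.04 at 24 h and 0.30 ± 0.05 at 48 h (limma adjusted p = 0.0035, 2.5e-06 and 1.1e-05), and the change at 4 h, -0.08, was not called. The difference of 48 h against 24 h was 0.67 ± 0.05 (SE, limma adjusted p = 3e-06), and it was called with the same sign under 11 of 11 other settings, at 0.57 to 0.96. With median centring the value at 48 h was -0.35, and relative to the centred median it was 0.08 and not called. The step of 24 h against 4 h, -0.28 (adjusted p = 0.00087), was -0.11 and not called with median centring. The late against early difference of 0.10 (adjusted p = 0.039) was lost on leaving out any of 9 of the 12 arrays, at 0.09 to 0.11.

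Fzd2 was lower at all 4 times, at -0.12, -0.27 and -0.23 at 2 h, -0.21, -0.20 and -0.30 at 4 h, -0.16, -0.16 and -0.22 at 24 h, and -0.26, -0.34 and -0.26 at 48 h. The 12 ratios were all below 0, and the 24 h arrays lay above the 48 h arrays, while the other pairs of times overlapped. The means were -0.21 ± 0.08, -0.23 ± 0.06, -0.18 ± 0.03 and -0.29 ± 0.05 (limma adjusted p = 0.0027, 0.00037, 0.0024 and 4.4e-05). Relative to the median after centring, however, they were 0.18, 0.14, 0.08 and -0.01. Over 10 other settings the Fzd2 value at 4 h ran from -1.04 to 0.14. The forskolin channel of Fzd2 was well above background on 3, 1, 3 and 2 arrays at 2, 4, 24 and 48 h. Fzd7, at -0.15 at 2 h, was called there only with slide as a block (adjusted p = 0.048, and 0.15 without it). It was lower at 4 h, at -0.04, -0.32 and -0.46 on its arrays, and at 24 h, at -0.20, -0.17 and -0.21. Its changes of -0.28 ± 0.22 and -0.19 ± 0.02 had adjusted p-values of 0.008 and 0.047. At 4 h the forskolin channel of Fzd7 was well above background only on replicate 1, the array with -0.04. The lower ratios at 4 h thus rest on forskolin readings near background, and their size was not measured. The Fzd7 call at 4 h was lost without replicate 2 (-0.25) or replicate 3 (-0.18), and that at 24 h on leaving out any of 6 arrays in turn, at -0.21 to -0.18. Relative to the median after centring Fzd7 stood at 0.04 at both times. Over 10 other settings its value at 4 h ran from -1.25 to 0.04. The co-receptor gene Lrp6 had 2 tested probes and no call, with changes between -0.04 and 0.12.

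Dkk1, the secreted inhibitor of the Lrp co-receptors, had the largest fitted change after loess among the tested Wnt probes at each of the 4 times. The changes of Wnt5a, Wnt10a and Sfrp4 are known only as bounds where a channel was not well above background, so Dkk1 cannot be ranked against them. At 2 h its ratios were -0.82, -0.96 and -0.93, and at 4 h they were -1.81, -1.96 and -1.96. At 24 h they were -0.91, -1.06 and -1.04, and at 48 h -0.65, -0.84 and -0.97. All 12 arrays lay below the reference, and the 3 arrays at 4 h lay below the other 9 with no overlap. In processed intensities Dkk1 read 2722, 2470 and 2352 in forskolin and 9865, 9913 and 9450 in reference channels at 4 h, and 7111, 6015 and 5119 against 11290, 10850 and 9961 at 48 h. The mean changes were -0.91 ± 0.07, -1.91 ± 0.08, -1.0 ± 0.08 and -0.82 ± 0.16, or 1.87-, 3.76-, 2.00- and 1.77-fold lower (limma adjusted p = 1.6e-07, 1.8e-11, 6.2e-09 and 3e-08). The further fall of 4 h against 2 h was -1.01 ± 0.08 and the partial return of 24 h against 4 h was 0.91 ± 0.08 (SE, limma adjusted p = 2e-06 and 9.7e-07). The difference of 48 h against 24 h, 0.18 ± 0.08, had an adjusted p of 0.18, and of 0.04 with slide as a block. Dkk1 kept its direction and its call at all 4 times under 11 of 11 other settings, with values at 4 h of -3.06 (median centring) to -1.90. Leaving out any 1 of the 12 arrays gave -1.96 to -1.89 at 4 h and -0.91 to -0.75 at 48 h.

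The promoter of Dkk1, called lower at all 4 times, is shown with letters that Tcf and Lef factors are known to bind. It runs from 250 bases before to 50 after the start (RefSeq, GRCr8, chr1:237798601-237798900, minus strand), and capitals mark CTTTGAA, 96 bases before the start.
Dkk1 promoter: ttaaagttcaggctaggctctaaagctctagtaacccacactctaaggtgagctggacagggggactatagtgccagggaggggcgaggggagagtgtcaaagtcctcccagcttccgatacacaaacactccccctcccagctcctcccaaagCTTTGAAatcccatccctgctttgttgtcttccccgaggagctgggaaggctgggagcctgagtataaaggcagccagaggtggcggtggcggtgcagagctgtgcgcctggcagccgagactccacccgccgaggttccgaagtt

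Of the 22 tested genes, 15 had a promoter in the RefSeq table, of which 1 start per gene was read, and other starts of a gene were not analysed here. The letters CTTTGAA, on either strand, were in 2 of the 15, Dkk1 and Fzd7, and in 5.4% of 33469 promoters of the same length. CTTTGAT was in 1, Nkd1, against 3.6% of all. The cyclic AMP response element TGACGTCA was in 0 of the 15 and in 1.8% of all. The shorter TGACG, which is contained in TGACGTCA, was in 4 of the 15 (Wnt2, Dvl1, Ctnnb1 and Nkd1), against 21.2% of all. A match describes letters only and was not tested as a binding site.

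Of the other antagonists, Sfrp4 was well above background in no forskolin channel, and in 3, 3, 2 and 1 reference channels at 2, 4, 24 and 48 h. Sfrp4 passed the filter only through its reference channel at 2 and 4 h. After loess, the reference was at least 1.14-fold higher at 2 h and at least 1.11-fold higher at 24 and 48 h (limma adjusted p = 0.014, 0.0068 and 0.002). The Sfrp4 call at 2 h was lost without replicate 1 (-0.13) or replicate 3 (-0.18) and that at 24 h without replicate 3 (-0.16). Relative to the median after centring the Sfrp4 values at 2, 24 and 48 h were 0.35, 0.31 and 0.33. These were called higher, not lower (limma adjusted p = 0.00071, 0.0018 and 0.0011), so the direction depended on the scaling. Sfrp5 was called at no time, with changes of -0.06 to 0.00; its value at 48 h rests on 2 arrays because 1 spot carried an outlier flag.

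Within the cell, Axin1, the scaffold of the destruction complex, was higher at all 4 times after loess. Its ratios were 0.23, 0.37 and 0.35 at 2 h, 0.23, 0.23 and 0.29 at 4 h, 0.22, 0.27 and 0.26 at 24 h, and 0.21, 0.15 and 0.13 at 48 h. All 12 arrays lay above the reference, and the 3 arrays at 48 h lay below the other 9. The means were 0.32 ± 0.08, 0.25 ± 0.03, 0.25 ± 0.03 and 0.16 ± 0.04 (limma adjusted p = 9.6e-05, 0.00013, 0.00012 and 0.003), and no step between times was called. The direction of Axin1 turned with the scaling: median centring gave -0.93, -0.96, -0.88 and -1.01, and values relative to the centred median were -0.39, -0.42, -0.46 and -0.57, all 8 of them called. Nkd1, which binds Dishevelled and dampens Wnt signals, was higher at 48 h on 1 of its 2 probes, at 0.05, 0.29 and 0.22, with a mean of 0.19 ± 0.12 (0.012). That Nkd1 call was lost without replicate 2 (0.14) or replicate 3 (0.17) of 48 h and was -0.61 with median centring and -0.17 relative to the centred median. Its other probe, at 0.10 ± 0.09, was not called. Dvl1, a Dishevelled gene, had a change of 0.13 ± 0.05 at 48 h (0.046), a call lost on leaving out any of 7 arrays in turn, at 0.10 to 0.14, and the value was -0.02 with median centring. Dvl3 and Nkd2 were called at no time.

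Ctnnb1 was higher at 4 h on both of its probes after loess, and the sign of both turned with median centring. The first probe, printed on 10 spots per array, had ratios of 0.18, 0.12 and 0.16 at 4 h, and the second 0.41, 0.33 and 0.46. For the second probe the 3 arrays at 4 h lay above those at 2 and 24 h, and the 48 h arrays, 0.47, 0.01 and -0.17, spread across them. The means at 4 h were 0.16 ± 0.03 and 0.40 ± 0.07 (limma adjusted p = 0.013 and 0.0017), and at 2, 24 and 48 h neither probe was called. Without replicate 1 or 3 of 4 h the first probe had 0.14 and 0.15, with adjusted p-values of 0.069 and 0.058. The SD between the spots of the first probe within an array was 0.06 to 0.11, against an SD between arrays of 0.03 to 0.11. The step of 24 h against 4 h was -0.24 for the first and -0.34 for the second probe (limma adjusted p = 0.011 and 0.045), and the second lost its call on leaving out any of 9 arrays in turn. With median centring the first probe was -0.10 at 4 h (adjusted p = 0.23) and the second -0.46 (9.9e-05), and relative to the centred median they were 0.45 (3.3e-05) and 0.09 (0.37). The step of the first probe was -0.14 with median centring (adjusted p = 0.47). Lef1, a partner of beta-catenin on DNA, was lower at 4 h, at -0.15, -0.39 and -0.35, and at 48 h, at -0.17, -0.24 and -0.16, while its ratios were 0.01, 0.19 and 0.01 at 2 h and 0.04, -0.14 and -0.09 at 24 h. The means were -0.30 ± 0.12 at 4 h and -0.19 ± 0.04 at 48 h (limma adjusted p = 0.00046 and 0.0083). Over 10 other settings the value at 4 h ran from -1.24 to -0.02, so its size was not settled. The forskolin channel of Lef1 was well above background on 2 arrays at 4 h, and not on replicate 2, the array with -0.39. The 4 h arrays of Lef1 lay below all those of 2 h, a step of -0.37 ± 0.08 (SE, adjusted p = 0.0055). Without replicate 2 of 48 h the late value was -0.17 with an adjusted p of 0.063, relative to the centred median both Lef1 values were -0.02, and with median centring the step of 4 h against 2 h was -0.28 with an adjusted p of 0.35.

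Between successive times, 4 of the 25 Wnt probes differed at 4 h against 2 h (16%, against 14.7% of all tested probes). Fzd3 and Wnt5a were higher at 4 h and Dkk1 and Lef1 lower, where 5.59% of all probes were higher and 9.12% lower. At 24 h against 4 h, 9 probes of 8 genes differed (36%, against 38%), with 19.9% of all probes higher and 18.1% lower. Dkk1, Wnt5b, Lef1 and Wnt7a were higher at 24 h, and Fzd3, Wnt5a, Fzd1 and both Ctnnb1 probes were lower. At 48 h against 24 h, 2 differed (8%, against 13.8%), Fzd1 and Wnt7b, both higher at 48 h, where 7.25% of all probes were higher and 6.53% lower, and Wnt7b (0.32) lost that call on leaving out any of 10 arrays in turn. Late arrays (24 and 48 h together) differed from early ones (2 and 4 h) for 10 probes (40%, against 49.8%), 7 higher and 3 lower, where 25.1% and 24.7% of all probes were. The lower ones were Fzd3 (-0.52), Wnt5a (its late level only a bound) and a Ctnnb1 probe (-0.17), and the largest of the higher ones were Dkk1 (0.50) and Wnt5b (0.38). Across the 4 times together, 10 probes differed by limma's F test (40%, against 52.4%), led by Dkk1 (adjusted p = 1.9e-07), Fzd3 (1e-06) and Fzd1 (1.1e-06).

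**Figure D5:**
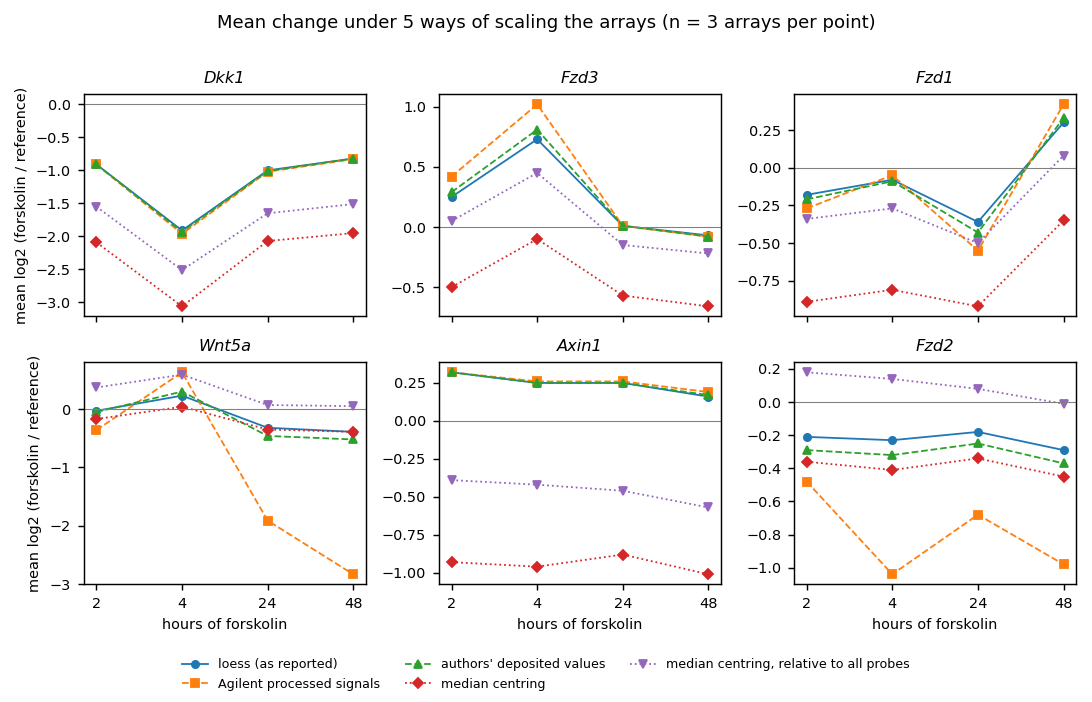
Mean log2 ratio of forskolin over reference (n = 3 arrays per point) at 2, 4, 24 and 48 h for 6 genes under 5 ways of scaling the arrays. Dkk1 stays below 0 in each with little difference in shape over time, and Axin1 lies above 0 in 3 and below 0 with either median centring. With median centring the Fzd3 step of 4 h against 2 h (0.40) and the Fzd1 step of 24 h against 4 h (-0.11) were not called.

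Beyond the members, 60 tested probes of 46 other Wnt pathway genes (secretion, destruction complex, co-factors and planar polarity) were read from a list. At 2 h, 9 were higher and 6 lower (25%, against 27.3% of all probes), and at 4 h 24 were higher and 13 lower (61.7%, against 48.8%). At 24 h, 13 were higher and 13 lower (43.3%, against 51.8%), and at 48 h 11 higher and 9 lower (33.3%, against 55.9%). Of all tested probes, 10.7%, 21%, 24.2% and 26.5% were higher at 2, 4, 24 and 48 h, and 16.6%, 27.9%, 27.6% and 29.4% lower. The splits of this list are those after loess, a step on which the split of the members rested. Prickle1, a core protein of the planar cell polarity branch, had changes of 1.52 ± 0.08, 2.46 ± 0.08, 0.95 ± 0.02 and 0.62 ± 0.12 at the 4 times (limma adjusted p of 1.1e-07 or less), and with median centring it was 0.03 at 24 h (adjusted p = 0.8) and -0.32 at 48 h. Tle3, a co-repressor that binds Tcf and Lef factors, rose by 0.83 ± 0.11 at 2 h and 1.55 ± 0.07 at 4 h, with -0.19 at 2 h under median centring. Of the casein kinases that phosphorylate Dishevelled, Csnk1d stood at 0.83 ± 0.04 (0.00 with median centring) and Csnk1e at -0.70 ± 0.02 at 4 h. Daam1, a formin that links Dishevelled to actin, rose by 0.93 ± 0.08 at 24 h and 0.88 ± 0.16 at 48 h, with 0.11 and 0.02, not called, under median centring. Dact1, which binds Dishevelled, fell to -0.56 ± 0.09 at 4 h and -0.50 ± 0.04 at 24 h. Ruvbl1, a helicase subunit that binds beta-catenin, fell to -0.60 ± 0.02 at 48 h, and Porcn, the enzyme that acylates Wnt ligands, to -0.27 ± 0.05 at 2 h.

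Genes known as Wnt targets in other tissues, the members left out, gave 26 tested probes of 21 genes. They were 8 higher and 2 lower at 2 h (38.5%, against 27.3% of all probes), 5 and 8 at 4 h (50%, against 48.8%), 7 and 8 at 24 h (57.7%, against 51.8%), and 7 and 8 at 48 h (57.7%, against 55.9%). These shares count probes, so Id2, with 3 probes higher at 2 h, weighs more there than a gene with a single probe. Many of these target genes answer to other signals as well. Their splits, too, are those after loess, and the shares of all probes in each direction are those given for the other pathway genes. Id2, which encodes an inhibitor of basic helix-loop-helix factors, was higher at 2 h on its 3 probes (1.75 ± 0.01, 1.60 ± 0.07 and 1.0 ± 0.12) and lower at 48 h (-1.49 ± 0.11, -0.95 ± 0.10 and -0.70 ± 0.08). Mycn, a growth-promoting transcription factor gene of neuroblastoma, was lower at 4, 24 and 48 h on both probes, at -1.31 ± 0.03, -0.96 ± 0.06 and -0.79 ± 0.05 on the first and -0.85 ± 0.12, -0.53 ± 0.06 and -0.33 ± 0.25 on the second. Sox9 was lower at 4 h (-1.05 ± 0.03) and higher at 48 h (0.60 ± 0.14), where median centring gave -0.11. Jun was higher at 2 h (1.07 ± 0.12) and Fosl1 at 4 h (0.25 ± 0.04). Vegfa (0.59 ± 0.08), Cd44 (0.42 ± 0.05) and Ascl2 (0.21 ± 0.09) were higher at 24 h, and Ascl2 (0.64 ± 0.01) and Tcf4 (0.41 ± 0.16) at 48 h. The calls of Fosl1 and of Ascl2 at 48 h were kept under 10 of 10 other settings. With median centring the rises of Jun, Vegfa, Cd44 and Tcf4, and of Ascl2 at 24 h, turned below 0. The Id2 rise at 2 h kept its direction and its call on the first 2 probes. Over 11 and 10 other settings these read at least 0.58 and 0.6.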

How the data were processed

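Total RNA of 12 forskolin samples and a common reference was hybridised to 2-colour rat arrays. Per the file headers, the scans were read by Feature Extraction 9.5.1.1. The deposited scanner files give mean and background intensity per spot for the green channel, which held forskolin RNA in Cy3, and for the red channel with reference RNA in Cy5, and intensities that Agilent's software background-subtracted and dye-normalized, per the file headers. The authors' deposited series table holds log2 values, for which limma is the tool named in the submitters' processing notes and no normalization is stated. Over bright spots and compared with scanner ratios, these log2 values ran as red over green (r of -1 to -0.998, column medians 0.0067 to 0.012), so their sign was turned when they were used as an alternative. A dye effect, the probes' dimness and an offset added to both channels can move or compress ratios.

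Here mean intensities were corrected by normexp with an offset of 50 and log2 green over red was loess-normalized within arrays (limma 3.58.1, R 4.3.3), with control spots weighted 0. Outlier-flagged spots were dropped, and the log2 values of the remaining spots were averaged for each probe. Tested probes had 1 channel or both well above background on every array of some time, and 2 unflagged arrays or more at each time. A mean per time was fitted with lmFit and eBayes to 20630 probes on 12 arrays, which leaves 8 residual degrees of freedom, and p-values were adjusted by Benjamini-Hochberg within each comparison. Where a channel was well above background on no array of a time, a bound replaces the fold. It is the mean of the measured channel against the higher of the probe's own value and the lowest value well above background, after loess and Aquantile, and is open to dye bias. Where the probe's own value is the higher, the bound is in effect the fitted fold. It is then an estimate from the arrays of a time and not a guaranteed minimum.

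The members and gene lists were chosen with earlier results of these data known. The rule for values on every array asked for a called change of at least 0.5 with 1 sign on 3 arrays, or else the 10 genes with the largest such change. From the other lists the rule took the 3 largest called rises and falls at each time, of which a selection is named. Names come from the files; 18 member probes matched RefSeq by accession and 42 by symbol, none to another name. Replicate numbers are slides per the file headers. Same-numbered arrays of different times deviated together (r over 0.1) in 14 of 18 pairs and others in 10 of 36. Since 4 pairs did not and the labels name no shared culture, the fit has no block, and values with slide as a block stand beside results whose call it changes. The fit was tested on simulated log2 ratios of 20630 probes, of which 100 changed by 0.5 and 100 by 1. For 24 h against the reference it recovered 97% of changes of 0.5 and 100% of changes of 1, with 15 unchanged probes called. For 24 h against 4 h it recovered 91% and 100%, with 9. Far fewer probes changed in this simulation than were called in the real data. Changes below 0.5, the size of most Wnt calls, were not simulated, so their recovery is not known.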

Additional observations from a re-analysis of the deposited data

Results flagged for a closer look

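Fzd1, Wnt5a and Wnt5b stood out because each was called in opposite directions against the reference at neighbouring times and the difference between those times was itself called in limma. Fzd1 was higher at 48 h (0.30) and lower at 24 h (-0.36), a difference of 0.67 (adjusted p = 3e-06) seen between all 3 arrays of either time. Wnt5a was lower at 24 h (-0.32, forskolin channel not well above background) and higher at 4 h (0.23), a fitted difference of -0.55 (adjusted p = 6.7e-05) whose size was not measured. Wnt5b was higher at 24 h (0.21) and lower at 4 h (-0.22), a difference of 0.43 (adjusted p = 0.00085). With median centring Fzd1 stayed below the reference at both times (-0.35 at 48 h), and Wnt5b was below it at 24 h (-0.31).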

How the results depend on the processing

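Dkk1 kept its direction and its call at all 4 times under each of the 11 alternatives to the processing, and over these alternatives 1031 values of single genes kept direction and side of the threshold, 80 no longer passed and 47 reversed. Leaving out 1 array at a time, 1216 were kept, 92 no longer passed and 0 reversed. The reversals came with both median centrings. With median centring in place of loess, Fzd3 was -0.50 at 2 h and -0.10 at 4 h, Axin1 -0.93, -0.96, -0.88 and -1.01 at the 4 times, Ctnnb1 -0.10 and -0.46 on its probes at 4 h, Wnt7a -0.35 at 24 h, and Wnt5b -0.31 and -0.35 at 24 and 48 h. At 48 h Dvl1 was then -0.02, Fzd1 -0.35, Nkd1 -0.61, Sox9 -0.11, Tcf4 -0.97 and Prickle1 -0.32. Jun was -0.16, Tle3 -0.19 and Csnk1d -0.29 at 2 h, Id2 -0.40 and -0.65 and Csnk1d 0.00 at 4 h, and Vegfa -0.13, Cd44 -0.24, Ascl2 -0.06 and Csnk1g2 -0.09 at 24 h. Relative to the median of all probes after that centring, Fzd2 was 0.18, 0.14 and 0.08 at 2, 4 and 24 h, Axin1 -0.39, -0.42, -0.46 and -0.57 at the 4 times, Sfrp4 0.35, 0.31 and 0.33 at 2, 24 and 48 h, and Fzd7 0.04 at 4 and 24 h. Wnt5a was 0.07 and 0.05 at 24 and 48 h, Nkd1 -0.17 at 48 h, Id2 -0.10 at 4 h, Tcf4 -0.54 at 48 h and Bcl9 0.40 at 2 h, and late against early Dvl1 was 0.00 and the second Nkd1 probe -0.05. The cause was not tested. The counts that follow describe how far calls depended on the processing. They are given without the share of all tested probes and so do not set the Wnt or other pathway probes against all probes. Such shares with either median centring, for the 4 times against the reference, stand beside the Wnt calls above. With median centring, 16 Wnt probes were called at 2 h and 14 at 24 h, and 1, 4 and 1 between successive times, 5 late against early and 5 across times. For the other pathway genes it gave 40 at 2 h, 40 at 48 h, 3, 10 and 0 between successive times, and 14 late against early. Relative to the median, 20, 20, 18 and 17 Wnt probes were called at the 4 times, 1, 3 and 1 between successive times, 5 late against early and 4 across times, and 41, 40 and 46 other pathway probes at 2, 24 and 48 h, 3, 9 and 0 between successive times and 17 late against early. At 48 h against 24 h, limma called 0 other pathway probes with either centring, where 5 and 7 had an unadjusted p under 0.05, against 7 called after loess (6 to 9 on leaving out any array). Requiring both channels on all 12 arrays left 12 Wnt probes to test, and 6, 5 and 5 were called at 4, 24 and 48 h, 2 at 4 h against 2 h, 1 at 48 h against 24 h, 6 late against early and 6 across times. At 48 h against 24 h, 1 Wnt probe was called with normexp offset 0, without a filter and in the authors' deposited values. Leaving out 1 array at a time gave 5 to 7, 8 to 11, 6 to 10 and 8 to 11 Wnt calls at the 4 times, 3 to 5, 6 to 9 and 1 to 2 between successive times, 7 to 11 late against early and 7 to 10 across times. For other pathway genes it gave 6 to 18 calls at 2 h, lowest without replicate 2 (7) or 3 (6) of 2 h, 25 to 38 at 4 h, 16 to 26 at 24 h, lowest without replicate 3 of 24 h, and 18 to 21 at 48 h. Same-numbered arrays deviated with correlations of 0.06 to 0.48 and others with -0.40 to 0.31. With replicate number (slide) as a block, 8, 12, 9 and 11 Wnt probes were called at the 4 times, 4, 9 and 3 between successive times, 10 late against early and 11 across times, where Fzd7 and Wnt2 at 2 h, Wnt11 at 4 h, Dkk1 at 48 h against 24 h and the second Ctnnb1 probe across times gained a call and 0 lost one. Signal over background limits dim members: the size of the change of Wnt5a at 24 and 48 h was not measured.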
